A study of Mus musculus with 8 samples.

Results

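The neuronal nicotinic acetylcholine receptor subunit genes Chrna3, Chrna4, Chrna5, Chrna6, Chrna7, Chrnb2, Chrnb3 and Chrnb4 were followed through midbrain dopaminergic (mDA) neurons of the substantia nigra pars compacta (SNc) and ventral tegmental area (VTA) of mice with and without the homeodomain transcription factor Pitx3. The members were the array probesets whose only gene symbol in the platform annotation was one of these names. Each of the 8 genes had 1 such probeset, giving 8 of the 35512 probesets on the array, and all 8 were among the 22112 that passed a signal minimum of 60 on the linear scale (5.91 on the log2 scale) in the mean of at least 1 group. The mice were C57Bl/6 pups of postnatal days 1 to 4, and every group carried 1 copy of the Th-EGFP transgene, in which the tyrosine hydroxylase promoter drives EGFP in catecholaminergic cells. Wild-type pups were Pitx3+/+;Th-EGFP+/- and knockout pups were Pitx3-/-;Th-EGFP+/-. Living EGFP+ cells were sorted from dissected SNc or VTA, which made 4 groups of 2 arrays, called by region and genotype SNc WT, VTA WT, SNc KO and VTA KO. Each array held amplified RNA of cells pooled over several sorts, and separate litters for the pools are not stated, so p-values here cover the spread among these pools alone. By the study's account the Pitx3-dependent ventral SNc (vSNc) neurons are already gone from the knockout SNc at birth, so that SNc KO stands for the surviving, mostly dorsal cells. The study describes the Pitx3-expressing neurons of the knockout VTA as still intact at that age. It therefore uses the VTA comparison to find genes whose expression depends on Pitx3.

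Nicotinic receptors are cation channels opened by acetylcholine, and each is assembled from several subunits around a central pore. The genes Chrna4 and Chrnb2 encode the α4 and β2 subunits of the most widespread receptor of the brain, whereas α6 and β3, encoded by Chrna6 and Chrnb3, are largely restricted to catecholaminergic and visual pathway neurons. In mDA neurons receptors that hold α6 and β3 together with β2, with or without α4, sit on cell bodies and on striatal terminals, where they control dopamine release. The α3 and β4 subunits form the main receptor of autonomic ganglia and of the medial habenula, α5 is an accessory subunit that cannot form a channel alone, and α7 forms channels by itself.

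The arrays had similar signal, with medians between 6.11 and 6.24 on the log2 scale. The root mean square SD between the arrays of a group was 0.376 for VTA KO and between 0.241 and 0.252 for the other groups. Of 13 dopaminergic markers 12 had a probeset, and all 12 were at or above the signal minimum in the mean of every group, with summed linear signals between 7293 and 10291. The 10 markers of ependymal and ciliated cells summed to 3646 and 4201 in VTA WT, 1429 and 2492 in VTA KO and 544 to 650 in the SNc groups. All 10 reached the signal minimum in the mean of VTA WT and 9 in that of VTA KO. In the SNc 3 reached it in wild type and 6 in the knockout. The summed signal of pericyte markers was 528 and 641 in SNc WT, 1562 and 1737 in SNc KO, 1508 and 2096 in VTA WT, and 354 and 1960 in VTA KO, whose arrays lay farthest apart. The Pitx3 probeset itself was not lower in the knockout groups, with log2 values of 7.72 and 7.63 in SNc WT, 7.87 and 7.94 in SNc KO, 8.10 and 7.84 in VTA WT, and 8.08 and 7.92 in VTA KO. Which part of the gene was deleted, and which part the probeset reads, is not given, so this probeset does not check the labels.

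The subunits characteristic of mDA neurons, Chrna6 and Chrnb3, showed the largest knockout differences of the 8 genes in both regions, and both were lower on every knockout array. The Chrnb3 signal was 10.74 and 10.75 on the SNc WT arrays, 9.02 and 9.34 on the SNc KO arrays, 10.51 and 10.28 on the VTA WT arrays, and 9.56 and 9.77 on the VTA KO arrays (all log2). The knockout arrays of both regions lay below all 4 wild-type arrays, and the SNc KO arrays lay below the VTA KO arrays. Between SNc WT and SNc KO alone, the arrays did not overlap for 44% of all tested probesets (20% lower in the knockout). The share for the VTA is not given here. Chrnb3 fell by 1.56 on the log2 scale from SNc WT (10.75 ± 0.0012, SD, n = 2) to SNc KO (9.18 ± 0.23), with a standard error of 0.157, which is a 2.96-fold lower signal (limma, adjusted p = 0.0375). It was the only member among the 33 probesets, 0.149% of those tested, that passed an adjusted p of 0.05 in this comparison. In the VTA the difference between knockout (9.66 ± 0.15) and wild type (10.40 ± 0.16) was -0.73 (SE 0.157, 95% interval -1.11 to -0.36, limma, adjusted p = 0.235), a 1.66-fold lower signal that did not pass.

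Chrna6 showed the larger difference of the pair. Its signal was 9.34 on both SNc WT arrays, 7.15 and 7.87 on the SNc KO arrays, 9.28 and 9.34 on the VTA WT arrays, and 8.09 and 8.33 on the VTA KO arrays. Here again the knockout and wild-type arrays did not overlap in either region, as in the SNc for 44% of all probesets. The SNc KO arrays were the lowest and also the farthest apart. From SNc WT (9.34 ± 0.00027) to SNc KO (7.51 ± 0.51) the difference was -1.83 (SE 0.232, 95% interval -2.39 to -1.27), a 3.55-fold lower signal that did not pass the threshold (limma, adjusted p = 0.0727). In the VTA it was -1.10 (SE 0.232, 95% interval -1.66 to -0.54, limma, adjusted p = 0.235), a 2.14-fold lower signal in the knockout.

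When the knockout effect was averaged over both regions, both genes fell. The mean effect was -1.15 for Chrnb3 (SE 0.111, limma, adjusted p = 0.0273) and -1.46 for Chrna6 (SE 0.164, limma, adjusted p = 0.0379). These were 2 of the 61 probesets, 0.276% of those tested, that passed in this comparison. The knockout difference was more negative in the SNc than in the VTA for both genes, by -0.83 for Chrnb3 (SE 0.222, 95% interval -1.36 to -0.29) and by -0.73 for Chrna6 (SE 0.328, 95% interval -1.52 to 0.06), but neither difference of the effects passed the test (limma, adjusted p = 0.386 and 0.534), nor did that of any other probeset (0%, 0 of 22112, with 2186 at an unadjusted p under 0.05). The Chrnb3 call in the SNc was lost without any 1 of the 8 arrays, with limma adjusted p between 0.061 and 0.305 and differences between -1.73 and -1.40, and also with the SNc arrays fitted alone (adjusted p = 0.15) or with no signal minimum (0.0748), which ended the calls on the mean effect too (0.058 and, for Chrna6, 0.0778). The call on the mean effect was kept without VTA KO replicate 2 for Chrnb3 (adjusted p = 0.0435) and without SNc KO replicate 2 for Chrna6 (adjusted p = 0.0438), and was lost without any other array, with adjusted p up to 0.165 and 0.211.

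**Figure D1:**
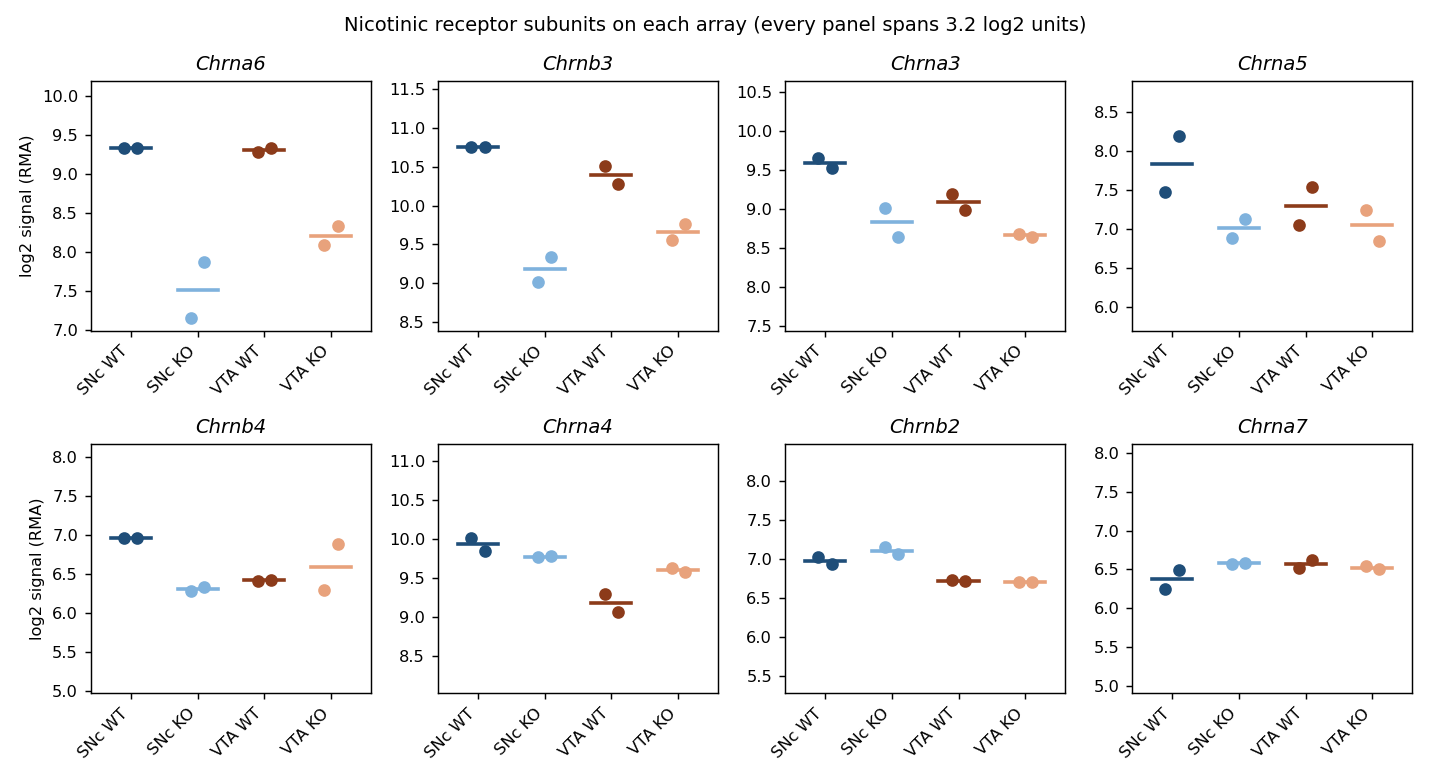
Signal of the 8 nicotinic subunit genes on each array. Each panel is 1 gene, points are arrays (log2 RMA signal on the vertical axis) of the 4 groups along the horizontal axis, and bars are means of 2 arrays. All knockout points of Chrna6 and Chrnb3 lie below the wild-type points, with the lowest Chrna6 point at 7.15 in SNc KO.

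Markers of several cell types moved with this pair in the SNc, those of the ventral SNc and most dopaminergic markers in the same direction. The 12 dopaminergic markers summed to 9587 and 10291 in SNc WT and 7294 and 8062 in SNc KO. Their VTA sums were 8375 and 8563 in wild type and 7293 and 7607 in the knockout. In SNc KO 9 of the 12 were lower, 4 at an unadjusted p under 0.05 (3.8% of all probesets). Of these, 1 passed an adjusted p of 0.05 (limma). The other 3 were higher, 1 at an unadjusted p under 0.05 (4.82%). The 5 ventral SNc markers (Sox6, Aldh1a1, Ndnf, Fgf20 and Kcnj6) summed to linear signals of 3606 and 3830 in SNc WT and 809 and 914 in SNc KO. Their VTA sums were 2897 and 3264 in wild type and 1190 and 1295 in the knockout. None of the 5 was under the signal minimum in any group mean. The linear mean of Aldh1a1 alone was 2560 in SNc WT and 2471 in VTA WT. In the same 2 groups Ndnf gave 477 and 194, Fgf20 234 and 135, Kcnj6 228 and 130, and Sox6 215 and 141. In SNc KO and VTA KO the linear means were 364 and 786 for Aldh1a1 and 166 and 120 for Ndnf. Those of Fgf20 were 127 and 114, of Kcnj6 118 and 111, and of Sox6 81.2 and 104. The VTA sums thus rest mostly on Aldh1a1. In SNc KO 3 of the 5 fell, Aldh1a1 by 2.81 (limma, adjusted p = 0.0125), Ndnf by 1.52 (adjusted p = 0.0221) and Sox6 by 1.41 (adjusted p = 0.0253). These 3 calls were kept without either VTA KO array and lost without any 1 of the other 6 arrays, with adjusted p up to 0.191, 0.235 and 0.239. Most markers of dorsal SNc and VTA neurons went the other way in the SNc. The 7 summed to 1736 and 1927 in SNc WT and 3260 and 3634 in SNc KO. Their VTA sums were 3923 and 4120 in wild type and 3847 and 3941 in the knockout. Of these 7 markers 1, the transcription factor gene Otx2, rose in SNc KO (by 2.13, limma, adjusted p = 0.0375). At an unadjusted p under 0.05, 5 of the 7 had higher signals (4.82% of all probesets). Lpl (log2 means of 6.16 in SNc WT and 5.86 in SNc KO) and Neurod6 (5.49 and 5.04) were lower. In VTA KO Lpl, Neurod6 and Grp were lower at an unadjusted p under 0.05 (5.51% of all probesets) and 2 were higher (4.73%). The 6 GABAergic markers summed to between 951 and 1027 in SNc WT and between 1384 and 1500.1 in SNc KO. As for the 6 pericyte markers, 2 were higher in SNc KO at an unadjusted p under 0.05 (4.82% of all probesets) and none passed. The GABAergic sums in the VTA were 982 and 996 in wild type and 1271 and 1467.5 in the knockout. There 2 were higher at an unadjusted p under 0.05 (4.73%). In the mean knockout effect 1 GABAergic marker passed (limma, 0.276% of all probesets did). Of 6 microglia and macrophage markers 2 passed the signal minimum. In the SNc comparison 1 of these, Mrc1, fell (by 1.40, limma, adjusted p = 0.038). The other, Cx3cr1, had a higher mean in the knockout SNc (7.04 against 6.86, log2). Only SNc WT had a Mrc1 mean above the signal minimum (104, linear). The knockout SNc gave 39.6, and the VTA gave 43.5 for wild type and 42.0 for the knockout. The Mrc1 fall thus ended under the minimum. The Otx2 and Mrc1 calls were lost without any 1 of the 8 arrays (limma, adjusted p up to 0.221 and 0.235). The part of these markers in the result was not tested. In sorted pools, fewer cells of a type and less RNA per cell cannot be told apart.

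Among the other 22111 tested probesets, the profile most like that of Chrna6 was that of Chrnb3. Likeness was measured as the root mean square difference between log2 profiles over the 8 arrays, each profile centred on its own mean, and this difference was 0.242 for the pair. The next named genes were Rreb1, a zinc finger transcription factor (0.253), and the vSNc marker Sox6, also a transcription factor (0.413). For Chrnb3 the nearest named genes were Rreb1 (0.129), Sox6 (0.193) and Chrna6 (0.242). Rreb1 gave 6.88 and 6.49 in SNc WT, 5.12 and 5.40 in SNc KO, 6.50 and 6.48 in VTA WT, and 5.56 and 5.80 in VTA KO, so that its knockout signals lay under the signal minimum. The knockout difference of Rreb1 was -1.43 in the SNc (limma, adjusted p = 0.0727) and -0.81 in the VTA (adjusted p = 0.244). Sox6 gave -1.41 and, in the VTA, -0.44 (adjusted p = 0.319).

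**Figure D2:**
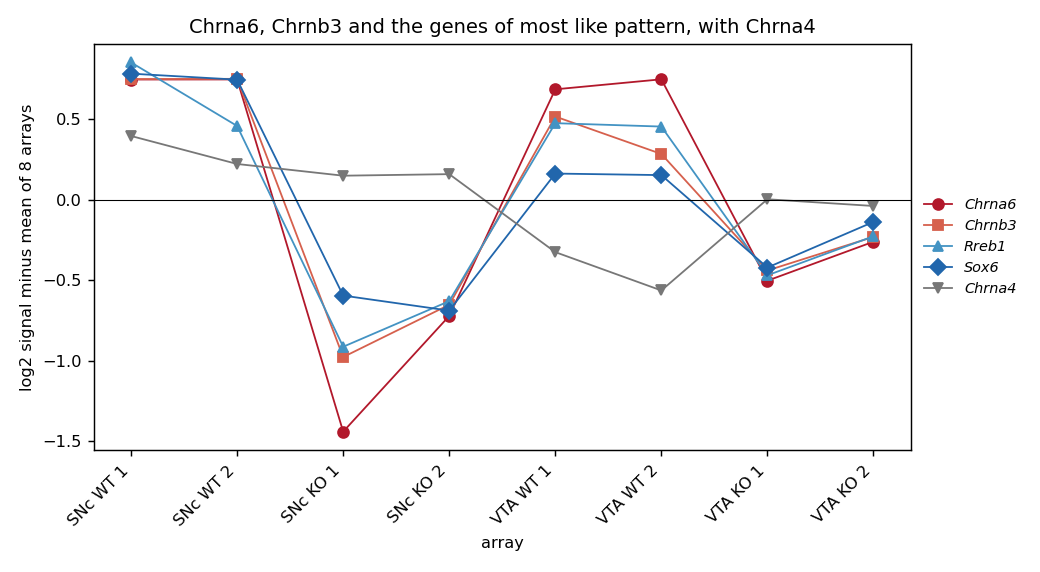
Profiles of Chrna6 and Chrnb3 and of the named genes closest to them over the 8 arrays. The vertical axis is the log2 signal minus the gene's own mean over the arrays, the arrays stand along the horizontal axis, and lines join the points of 1 gene only to make it readable. Chrna6, Chrnb3, Rreb1 and Sox6 lie above 0 on all wild-type arrays and below 0 on all knockout arrays, and Chrna4 is drawn as a member of another pattern.

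Chrna6 and Chrnb3 are also neighbours, on mouse chromosome 8 in the RefSeq gene table (GRCm38.p6). The protein-coding genes flanking them had no called change. Eif4ebp1, which encodes a translation repressor, differed by -0.09 between SNc KO and SNc WT (limma, adjusted p = 0.923) and by -0.24 in the VTA (adjusted p = 0.575). Tex24 gave -0.78 (adjusted p = 0.595) and 0.47 (adjusted p = 0.686). On the other side, the netrin receptor gene Unc5d gave 0.65 (adjusted p = 0.444) and 0.27 (adjusted p = 0.704), and the phosphatase gene Dusp26 gave -0.08 (adjusted p = 0.91) and 0.06 (adjusted p = 0.87). Poteg was below the signal minimum, and Adrb3 had no probeset of its own symbol here.

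The genes Chrna5, Chrna3 and Chrnb4 form the other cluster of the family, on mouse chromosome 9. The annotated gene models of Chrna3 and Chrna5 overlap, and it is not given whether their probesets read the shared stretch. The 250 bases before the RefSeq transcription starts of these genes (GRCm38.p6) are shown because all 3 genes had lower signals in SNc KO at an unadjusted p under 0.05. Capitals mark the GC box GGGCGG, a binding motif of Sp family factors, read on either strand.
Chrna3, chr9:55026563-55026812, minus strand: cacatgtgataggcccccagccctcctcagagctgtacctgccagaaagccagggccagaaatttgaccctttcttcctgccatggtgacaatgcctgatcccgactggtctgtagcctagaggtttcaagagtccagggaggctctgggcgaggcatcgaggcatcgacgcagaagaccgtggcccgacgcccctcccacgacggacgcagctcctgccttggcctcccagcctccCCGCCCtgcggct
Chrnb4, chr9:55048545-55048794, minus strand: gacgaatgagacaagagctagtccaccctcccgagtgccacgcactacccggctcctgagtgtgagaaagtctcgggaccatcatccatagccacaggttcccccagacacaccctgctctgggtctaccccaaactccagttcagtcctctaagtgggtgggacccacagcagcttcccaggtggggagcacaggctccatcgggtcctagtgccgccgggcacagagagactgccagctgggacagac
Chrna5, upstream start, chr9:54980630-54980879, plus strand: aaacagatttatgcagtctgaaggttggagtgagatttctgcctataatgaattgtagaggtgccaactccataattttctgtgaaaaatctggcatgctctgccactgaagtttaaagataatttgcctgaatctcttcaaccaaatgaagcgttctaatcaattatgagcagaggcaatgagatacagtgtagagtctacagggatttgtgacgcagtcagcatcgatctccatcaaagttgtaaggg
Chrna5, downstream start, chr9:54981238-54981487, plus strand: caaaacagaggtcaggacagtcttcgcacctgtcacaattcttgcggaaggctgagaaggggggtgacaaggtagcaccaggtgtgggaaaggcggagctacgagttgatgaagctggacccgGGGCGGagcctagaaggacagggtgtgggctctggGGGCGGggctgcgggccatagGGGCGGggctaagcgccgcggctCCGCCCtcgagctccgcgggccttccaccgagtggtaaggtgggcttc
These windows differed in base composition. The share of G and C was 63.2% for Chrna3, 61.2% for Chrnb4 and 65.2% for the downstream start of Chrna5, above the median of 52.4% over 32851 promoters, and 40.0% for its upstream start. The CpG dinucleotide occurred 13, 8 and 17 times in the first 3 of these and 3 times in the last, with a median of 6 over all promoters. The GC box was found once before Chrna3 and 4 times before the downstream start of Chrna5, and 32.7% of all promoters held at least 1. The bicoid-class homeodomain core TAATCC, the class of motif that Pitx factors read, and the nuclear receptor element AAAGGTCA, read by Nr4a2 and its relatives, were in none of the 7 windows, which cover the members other than Chrna6 and Chrnb3 (6.25% and 1.34% of all promoters on either strand).

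Chrna3 was the subunit of this cluster with the clearest separation. It gave log2 signals of 9.64 and 9.52 in SNc WT, 9.01 and 8.64 in SNc KO, 9.18 and 8.98 in VTA WT, and 8.68 and 8.63 in VTA KO. The SNc WT arrays were above all others, and the knockout arrays lay below the wild-type arrays within each region. In the SNc the knockout arrays lay below the wild-type arrays for 20% of all probesets. The knockout difference was -0.76 in the SNc (SE 0.157, 95% interval -1.13 to -0.38, limma, adjusted p = 0.227) and -0.42 in the VTA (95% interval -0.80 to -0.05, limma, adjusted p = 0.433). Neither passed, nor did the mean over both regions of -0.59 (limma, adjusted p = 0.151).

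Chrnb4 had its highest values in SNc WT, with VTA KO replicate 2 close to them. It gave 6.97 on both SNc WT arrays, 6.28 and 6.33 in SNc KO, 6.41 and 6.43 in VTA WT, and 6.30 and 6.89 in VTA KO. The VTA KO arrays (6.59 ± 0.42, SD) spanned the VTA WT values. The difference was -0.66 between SNc KO and SNc WT (SE 0.191, 95% interval -1.12 to -0.20, limma, adjusted p = 0.406) and 0.17 between VTA KO and VTA WT (95% interval -0.29 to 0.64, limma, adjusted p = 0.801). The VTA difference turned to -0.12 without VTA KO replicate 2.

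Chrna5 was the most variable of the family between arrays of a group. It gave 7.48 and 8.20 in SNc WT, 6.89 and 7.14 in SNc KO, 7.05 and 7.54 in VTA WT, and 7.25 and 6.85 in VTA KO. The groups of the SNc did not overlap, as for 44% of all probesets, whereas those of the VTA did. Its knockout difference was -0.83 in the SNc (SE 0.291, 95% interval -1.53 to -0.12, limma, adjusted p = 0.502) and -0.25 in the VTA (95% interval -0.95 to 0.45, limma, adjusted p = 0.816). The SNc value was -0.47 without SNc WT replicate 2 and -1.19 without SNc WT replicate 1.

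The protein-coding genes next to this cluster had no called change either. Hykk, a hydroxylysine kinase gene, differed by -0.16 in the SNc (limma, adjusted p = 0.897) and 0.14 in the VTA (adjusted p = 0.831), and the proteasome subunit gene Psma4 by 0.01 (adjusted p = 0.996) and -0.07 (adjusted p = 0.896). On the other side Ube2q2, of a ubiquitin-conjugating enzyme, gave -0.24 (adjusted p = 0.858) and -0.17 (adjusted p = 0.834), and Fbxo22, of a ubiquitin ligase subunit, 0.31 (adjusted p = 0.634) and 0.25 (adjusted p = 0.596). AY074887 and Nrg4 were below the signal minimum.

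The α3 and β4 subunits are also those of the medial habenula, and the red nucleus and habenula markers were therefore read beside them. Of 5 such markers 4 had a probeset, and 1, Nwd2, was above the signal minimum, at 9.30 and 9.39 in SNc WT, 8.45 and 8.39 in SNc KO, 8.66 and 8.72 in VTA WT, and 8.10 and 8.22 in VTA KO. The defining markers Pou4f1, Tac2 and Gpr151 were below the minimum in every group mean. The summed signals of the list were 720 and 758 in SNc WT, 408 and 430 in SNc KO, 497 and 511 in VTA WT, and 381 and 390 in VTA KO, and their part in the Chrna3 and Chrnb4 values was not tested. For autonomic and motor type cholinergic neurons, 1 to 3 of 6 measured markers reached the minimum in a group mean, among Isl1, Prph and Slc18a3. Isl1, a LIM homeodomain factor of motor and other neurons, gave 7.86 and 7.78 in SNc WT, 8.53 and 8.01 in SNc KO, 6.49 and 6.19 in VTA WT, and 6.50 and 5.93 in VTA KO. Chat, the enzyme that makes acetylcholine, was below the minimum, with log2 signals between 4.46 and 5.01.

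The subunits of the widespread α4β2 receptor did not follow this pattern. Chrna4 gave 10.02 and 9.84 in SNc WT, 9.77 and 9.78 in SNc KO, 9.30 and 9.06 in VTA WT, and 9.62 and 9.58 in VTA KO. The VTA WT arrays were the lowest, the SNc WT arrays the highest, and the knockout arrays of both regions lay between them. The difference between SNc WT (9.93 ± 0.12) and VTA WT (9.18 ± 0.17) was 0.75 (SE 0.125, 95% interval 0.45 to 1.05), a 1.69-fold higher signal in the SNc that did not pass (limma, adjusted p = 0.0702). The knockout difference was -0.15 in the SNc (95% interval -0.46 to 0.15, limma, adjusted p = 0.827) and 0.43 in the VTA (SE 0.125, 95% interval 0.12 to 0.73, limma, adjusted p = 0.331). Its difference between the regions was -0.58 (SE 0.177, limma, adjusted p = 0.429).

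Chrnb2 encodes the partner that most α4 and α6 receptors need, and its signals lay within a narrow range. It gave 7.01 and 6.93 in SNc WT, 7.15 and 7.05 in SNc KO, 6.73 and 6.71 in VTA WT, and 6.70 on both VTA KO arrays. Every SNc array was above every VTA array. The knockout difference was 0.13 in the SNc (95% interval -0.11 to 0.37, limma, adjusted p = 0.819) and -0.02 in the VTA (95% interval -0.26 to 0.23, limma, adjusted p = 0.971). Between the regions it was 0.25 in wild type (95% interval 0.01 to 0.49, limma, adjusted p = 0.249) and 0.40 in the knockout (95% interval 0.16 to 0.64, limma, adjusted p = 0.177), none of which passed.

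Chrna7, which encodes the subunit of the homomeric α7 receptor, had the narrowest range of group means of the 8 genes, 0.20 on the log2 scale. It gave 6.25 and 6.50 in SNc WT, 6.57 and 6.59 in SNc KO, 6.52 and 6.63 in VTA WT, and 6.54 and 6.50 in VTA KO. SNc WT replicate 1 was the lowest array, and the other 7 lay between 6.50 and 6.63. The knockout difference was 0.20 in the SNc (95% interval -0.09 to 0.49, limma, adjusted p = 0.739) and -0.05 in the VTA (95% interval -0.34 to 0.24, limma, adjusted p = 0.915).

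Counted over the family, most members had lower signals in the knockout SNc. Of the 8 members 5 (Chrna3, Chrna5, Chrna6, Chrnb3 and Chrnb4) had a lower signal in SNc KO at an unadjusted p under 0.05, where the share of all tested probesets was 3.8%. The same 5 were lower by the thresholds that the methods give, an unadjusted p of 0.05 and a 1.5-fold difference, against 1.76% of all probesets (3.6% in either direction). The arrays of the groups did not overlap for all 8 members, 6 lower and 2 higher in the knockout, while they did not overlap for 44% of all probesets (20% lower, 24% higher). The median log2 difference was -0.71 over the members and 0.01 over all tested probesets.

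In the VTA fewer members differed. No member passed an adjusted p of 0.05, where 0.00904% of all probesets (2 of 22112) did, and at an unadjusted p under 0.05 Chrna3, Chrna6 and Chrnb3 were lower (5.51% of all probesets) and Chrna4 was higher (4.73%). By the methods' thresholds 2 members, Chrna6 and Chrnb3, differed, as did 4.35% of all probesets. The median difference was -0.15 over the members and -0.02 over all. For the difference between the knockout effects, 3 members (Chrna4, Chrnb3 and Chrnb4) were more negative in the SNc at an unadjusted p under 0.05, as were 4.36% of all probesets, and none of these passed after adjustment.

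**Figure D3:**
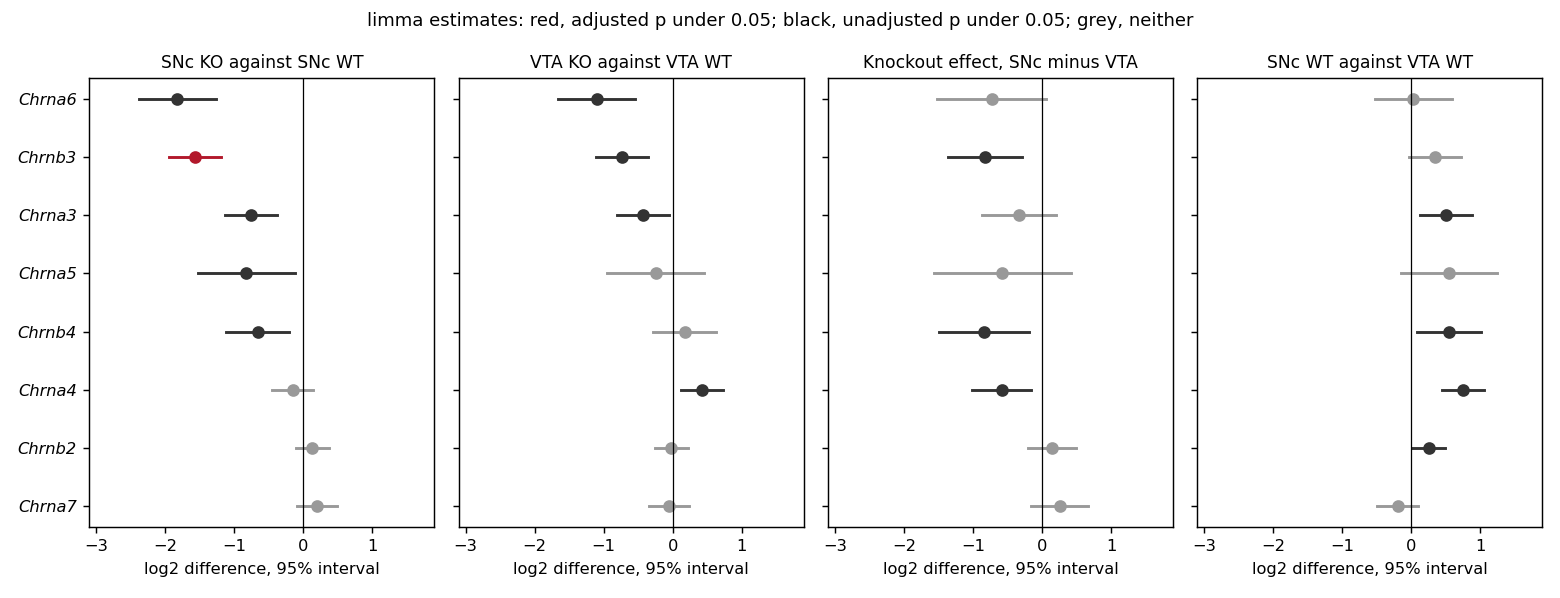
Differences between groups for the 8 nicotinic subunit genes. Points are log2 differences and bars 95% confidence intervals from limma, in 1 panel for each of 4 comparisons, in red at an adjusted p under 0.05, in black at an unadjusted p under 0.05 alone and in grey otherwise. The intervals of Chrna6, Chrnb3 and Chrna3 lie below 0 in both knockout comparisons, whereas that of Chrna4 in the VTA (0.12 to 0.73) lies above it.

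Between the wild-type regions, 7 of the 8 members had the higher mean in the SNc. The median difference between SNc WT and VTA WT was 0.42 over the members and 0.01 over all probesets. No member passed an adjusted p of 0.05 (0.439% of all probesets did), and 4 had an unadjusted p under 0.05 with the higher signal in the SNc, namely Chrna4 (0.75), Chrnb4 (0.55), Chrna3 (0.50) and Chrnb2 (0.25), as were 8.59% of all probesets. By the methods' thresholds 1 member, Chrna4, differed, as did 6.62% of all probesets. Chrna6 was level between the wild-type regions, at 9.34 and 9.31 (difference 0.03, 95% interval -0.53 to 0.59, limma, adjusted p = 0.956), and Chrnb3 differed by 0.35 (95% interval -0.03 to 0.73, limma, adjusted p = 0.291). This comparison uses the same SNc WT and VTA WT arrays as the knockout comparisons.

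Between the knockout regions the signals of the α6 and β3 genes were lower in the SNc. Chrna6 was lower in SNc KO than in VTA KO by a difference of -0.70 (95% interval -1.26 to -0.14, limma, adjusted p = 0.224) and Chrnb3 by -0.48 (limma, adjusted p = 0.22). Without SNc KO replicate 1 or 2 these differences were -0.34 or -1.06 for Chrna6 and -0.32 or -0.64 for Chrnb3. No member passed (0.149% of all probesets did). At an unadjusted p under 0.05 these 2 were lower (7.81% of all probesets) and Chrnb2 was higher (9.73%), and by the methods' thresholds 1 member, Chrna6, differed (6.96%).

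The genes that serve these receptors were read from 5 lists of 33 genes in all. The Ly6 prototoxin family, small membrane-anchored or secreted proteins of which several bind nicotinic receptors, had 7 of 7 genes above the signal minimum. In each region 6 of the 7 had a higher mean in the knockout. Of all tested probesets, 47.2% had a lower mean in the knockout in the SNc and 54.3% in the VTA. Lypd1, which encodes a member that binds α4β2 receptors and lowers their response in mice, gave 7.75 and 7.72 in SNc WT, 8.36 and 8.55 in SNc KO, 7.49 and 7.39 in VTA WT, and 8.00 and 8.08 in VTA KO. Its knockout arrays lay above all wild-type arrays, and it rose in the mean knockout effect by 0.66 (SE 0.0798, limma, adjusted p = 0.0488). It was the 1 of the 7 to pass, as did 0.276% of all probesets. The call was lost without any 1 of the 8 arrays (limma, adjusted p between 0.069 and 0.250). Its differences of 0.72 in the SNc and 0.60 in the VTA did not pass by themselves (adjusted p = 0.123 and 0.191).

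Lynx1, the prototype of the family and a brake on nicotinic receptors in the cortex, was singled out after its values were seen. It gave 6.97 and 7.14 in SNc WT, 8.02 and 8.24 in SNc KO, 7.50 and 7.04 in VTA WT, and 7.98 and 7.53 in VTA KO. The SNc groups did not overlap, as for 44% of all probesets, and differed by 1.07 (limma, adjusted p = 0.217). Lypd6b, also read after its values were seen, differed by 0.88 in the SNc (limma, adjusted p = 0.504) and 1.05 in the VTA (adjusted p = 0.335). The median difference of the 7 Ly6 genes was 0.62 in the SNc and 0.29 in the VTA, beside 0.01 and -0.02 over all probesets. At an unadjusted p under 0.05, 4 of them were higher in SNc KO (4.82% of all probesets) and 2 in VTA KO (4.73% of all probesets).

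The muscarinic receptors, the G protein-coupled receptors for acetylcholine, had 5 of 5 genes above the minimum in some group mean and none that passed. The linear means of Chrm3 (48.6), Chrm4 (46.2) and Chrm2 (39.6) in SNc WT lay under the minimum. The SNc differences of Chrm3 and Chrm2 below thus start from under it. Chrm3 gave 5.63 and 5.58 in SNc WT, 6.77 and 6.58 in SNc KO, 6.13 and 5.80 in VTA WT, and 6.74 and 6.38 in VTA KO. The difference was 1.07 in the SNc (limma, adjusted p = 0.131) and 0.60 in the VTA (adjusted p = 0.326). Chrm2, the inhibitory autoreceptor of cholinergic neurons, gave 4.92 and 5.69 in SNc WT, 7.30 and 5.81 in SNc KO, 5.92 and 6.33 in VTA WT, and 6.98 and 7.37 in VTA KO. The SNc difference of Chrm2 was 1.25 (95% interval 0.03 to 2.47, limma, adjusted p = 0.568), and 0.502 or 1.999 without SNc KO replicate 1 or 2. Chrm5, the muscarinic receptor typical of mDA neurons, was singled out after its values were seen, and gave 8.63 and 8.30 in SNc WT, 7.77 and 8.00 in SNc KO, 8.24 and 8.43 in VTA WT, and 7.80 and 8.25 in VTA KO. Its SNc difference was -0.58 (limma, adjusted p = 0.492).

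The remaining lists showed few differences. The chaperone and assembly genes (Ric3, Tmem35a, Rapsn, Ywhah, Vsnl1 and Pick1) were all above the minimum in some group mean. For Rapsn this was the VTA WT mean alone. None of the 6 had an unadjusted p under 0.05 in either knockout comparison. Rapsn, the anchor of the muscle receptor, differed by -0.32 between SNc WT and VTA WT (limma, adjusted p = 0.207). Of the 8 other nicotinic subunit genes, among them those of the muscle and hair cell receptors, 3 (Chrna2, Chrne and Chrng) passed the minimum, and none passed the test. Chrng, of the fetal muscle receptor, differed by -0.34 between SNc WT and VTA WT (limma, adjusted p = 0.234).

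Of 7 genes for acetylcholine synthesis, transport and breakdown 4 passed the signal minimum, and none passed the test. Ache, which encodes the enzyme that breaks acetylcholine down, gave 7.50 and 7.39 in SNc WT, 7.99 and 8.29 in SNc KO, 7.59 and 7.43 in VTA WT, and 7.53 and 8.14 in VTA KO. Its difference was 0.69 in the SNc (limma, adjusted p = 0.446) and 0.32 in the VTA (adjusted p = 0.665), the latter 0.63 or 0.017 without VTA KO replicate 1 or 2. Slc18a3, the vesicular acetylcholine transporter, gave 5.77 and 5.60 in SNc WT, 5.86 and 5.55 in SNc KO, 5.82 and 6.04 in VTA WT, and 6.58 and 6.53 in VTA KO. The VTA KO arrays were above the others, by 0.62 against VTA WT (limma, adjusted p = 0.27), and SNc KO lay below VTA KO by a difference of -0.85 (limma, adjusted p = 0.121).

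**Figure D4:**
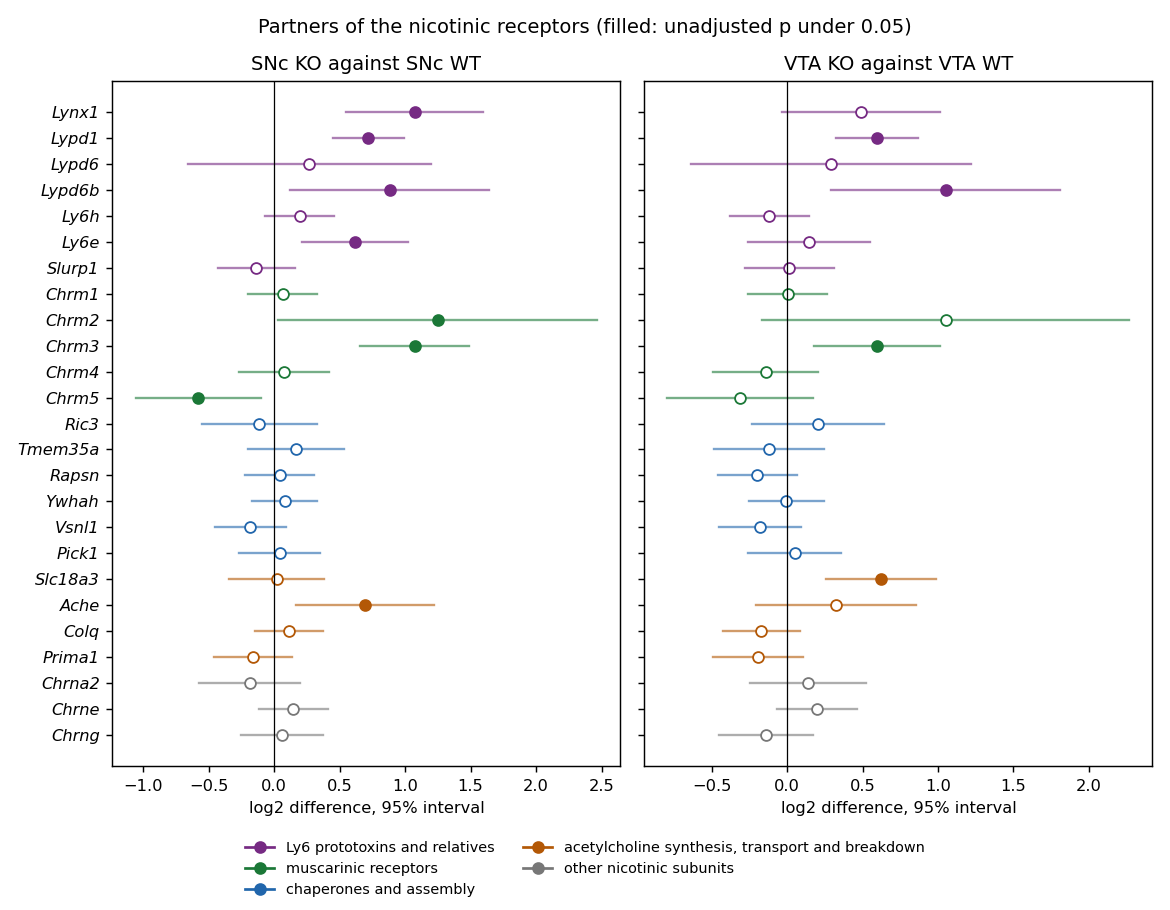
Knockout differences of the genes that serve acetylcholine receptors, knockout against wild type in the SNc (left) and in the VTA (right). Points are log2 differences from limma with 95% confidence intervals, coloured by list and filled at an unadjusted p under 0.05. Lypd1 (0.72 and 0.60) lies above 0 with its interval in both panels, and the chaperone genes lie around 0.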

How the data were processed

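Total RNA of sorted EGFP+ cells, 2 pools per group, was linearly amplified and hybridised to Affymetrix Mouse Gene 1.0 ST arrays by the authors. The deposited values are log2 signals per probeset, background-corrected and normalized between arrays with RMA (version and genome build: not given in the sources used here). RMA makes arrays alike in distribution, so each value is relative to the rest of its array, and levels of different probesets were not compared. The number of arrays, 2 in each group, limits the precision. Of the 35512 probesets 21789 had 1 gene symbol in the platform annotation, 1621 several and 12102 none.

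The 22112 probesets that reached a linear signal of 60 in the mean of any group were fitted with limma 3.58.1 (R 4.3.3) over all 8 arrays, each group with its own mean, followed by eBayes and Benjamini-Hochberg adjustment over all of them, for 6 comparisons. The fit had 4 residual and 2.40 prior degrees of freedom. The methods name the LPE test, which was not run, and the same signal minimum. An exact permutation test of 2 against 2 arrays cannot go below p = 0.333 and was not used. The members and lists were chosen with earlier results of these data known. All 8 members were named. From the lists, genes with an adjusted p under 0.05 were named, otherwise up to 2 with the largest difference at an unadjusted p under 0.05, as were, for the members with an adjusted p under 0.05, the 3 genes of most like profile, and the 3 nearest genes on each side of a cluster. The fit was tested on simulated data. Gene symbols, neighbours and promoters came from RefSeq tables (GRCm38.p6), in which all 8 gene IDs were found. Alternatives changed the signal minimum, scaling, arrays fitted, replicate block, array weights, variance trend and thresholds, or left out 1 array.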

Additional observations from a re-analysis of the deposited data

Results flagged for a closer look

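For 2 members the SNc and VTA knockout arrays moved in opposite directions against their own wild-type arrays without overlap. In the SNc comparison alone the arrays did not overlap for 44% of all probesets. The share of all probesets that moved in opposite directions in this way was not counted, so the 2 members cannot be set against it. Chrna4 was lower on both SNc KO arrays (9.77 and 9.78) than in SNc WT (10.02 and 9.84) and higher on both VTA KO arrays (9.62 and 9.58) than in VTA WT (9.30 and 9.06), with a difference between the effects of -0.58 (SE 0.177, unadjusted p = 0.0152, limma, adjusted p = 0.429). Chrnb2 was higher on both SNc KO arrays than in SNc WT and lower on both VTA KO arrays than in VTA WT, with a difference between the effects of 0.15 (SE 0.142, unadjusted p = 0.34, limma, adjusted p = 0.769). Neither difference passed after adjustment, and the Chrnb2 values on the 4 VTA arrays lay between 6.70 and 6.73.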

How the results depend on the processing

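Of the member differences under settings other than leaving out an array, 347 kept their direction and side of the threshold, 8 lost a call, 3 gained one and 4 reversed, and without 1 array the counts were 355, 22, 0 and 7 (a group left with 1 array is assumed to vary like the others). In SNc KO against SNc WT, where 1 member was called, 0 were called with no filter on signal, with the arrays of the 2 groups alone and without any 1 array (0 to 0), 2 with a signal minimum of 120 or array weights, and 5 by the thresholds of the methods. Those thresholds called 2 in VTA KO against VTA WT and 1 each in SNc KO against VTA KO and SNc WT against VTA WT, where array weights also called 1 (Chrna4, adjusted p = 0.0293). In the mean knockout effect, where 2 were called, 0 were with no filter, 1 with array weights and 0 to 1 without 1 array. The replicate block left 0 called in both of these comparisons (adjusted p = 0.105 for Chrnb3 in the SNc, 0.074 for its mean effect and 0.0668 for that of Chrna6), and the same-numbered arrays of the groups shared only a number (correlations of their deviations 0.0058 to 0.098). The Aldh1a1 and Ndnf calls were lost with the 2 groups alone (adjusted p = 0.086 and 0.114) and with the replicate block (0.0528 for both). The Otx2 and Mrc1 calls were lost with no filter (0.0741 and 0.0775), with the 2 groups alone (0.151 and 0.15) and with the replicate block (0.105 for both), and that of Mrc1 also with a variance trend (0.0619). The Sox6 call was lost with no filter (adjusted p = 0.0534), with the 2 groups alone (0.114) and with the replicate block (0.0746), and the Lypd1 call with no filter (0.100), the replicate block (0.109), array weights (0.0601), a variance trend (0.0505) and the median of each array subtracted (0.0611). The cause of these changes was not tested.

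The reversed values were all of differences that did not pass. With the median of each array subtracted, Chrnb2 in the VTA knockout became 0.0074 and Chrna5 between the knockout regions 0.0406, and this scaling moved the median of all probesets from 0.01 to 0.11 between the wild-type regions and from 0.04 to 0.11 between the knockout regions. With quantile normalization Chrna6 between the wild-type regions became -0.0959 and Chrnb2 in the VTA knockout 0.0061. Without 1 array, the differences between the knockout regions ranged from -0.0214 (without SNc KO replicate 1) to 0.356 for Chrna3, from -0.233 to 0.166 for Chrna5 (0.0877 without SNc KO replicate 1, 0.166 without VTA KO replicate 1) and from -0.584 to 0.00975 for Chrnb4 (the latter without VTA KO replicate 2). In the VTA knockout they ranged from -0.102 to 0.000538 for Chrna7 (the latter without VTA WT replicate 2) and from -0.123 to 0.471 for Chrnb4 (the former without VTA KO replicate 2), and Chrna6 between the wild-type regions ranged from -0.000994 (without VTA WT replicate 1) to 0.0611. By the thresholds of the methods, which adjust no p, 796 probesets were called in SNc KO against SNc WT, 961 in VTA KO against VTA WT, 1540 in SNc KO against VTA KO and 1464 in SNc WT against VTA WT. Under the other settings with an adjusted p, the number of all probesets called was 0 to 89 in SNc KO against SNc WT (33 in the report) and 21 to 66 for the mean effect (61), and without 1 array 0 to 31 and 1 to 72. It was 0 to 10 in VTA KO against VTA WT (2), 0 to 46 in SNc KO against VTA KO (33) and 62 to 847 in SNc WT against VTA WT (97), and without 1 array 0 to 69, 0 to 1390 and 0 to 436.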
